A study of Mus musculus with 10 samples.

Results

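A total of 736 gene names were listed as ARID2-enriched in mouse spermatogenic cells at P28.5 and not at P28, where P gives the postnatal day. They were chosen by name alone, as every gene symbol in the P28.5 list that was missing from the P28 list. They made up 27.2% of the 2707 names at P28.5, and the lists of both ages held 4831 names in all. A further 1971 names were in both lists and 2124 were in the P28 list only.

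The study asked where PBAF, a chromatin remodeler, sits during the last steps of the first meiotic division. ARID2 was mapped by CUT&RUN, in which an antibody tethers a nuclease to its target and the fragments it releases are sequenced. Each age had 2 libraries with the ARID2 antibody, 1 library with each of the G7 and abcam antibodies to BRG1, and 1 control library without primary antibody. The BRG1 libraries were not analysed here. All mice were of the strain CD1, and the labels name no allele. Their spermatogenesis was synchronized with WIN18,446, an inhibitor of retinoic acid synthesis, from P1 to P10, and restarted with 1 injection of retinoic acid at P11. Cells were taken 17 days after that injection at P28 and 17.5 days after it at P28.5. They were a filtered suspension of whole tubules, enriched for pachytene, diplotene and metaphase spermatocytes, so other cells of the tubule could be present. The paper reports more round spermatids in the tubules at P28.5 than at P28, and lower proportions of leptotene and zygotene spermatocytes. The ages thus differed in cell mix, and the part of this in the lists was not tested. The number of animals per library is not given in the sources used here.

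The authors averaged the ARID2 replicates and divided annotated transcription start sites (TSSs) into clusters separately at each age, and each list is the enriched cluster. Each row holds coordinates and a symbol but no signal, strand or count, so the lists show neither depth nor the spread between replicates. The paper reports more mapped read pairs at P28.5 than at P28 for each ARID2 replicate number. It also reports that a smaller share of enriched TSSs overlapped called peaks at P28.5 than at P28. The part of these differences in the lists was not tested. Coverage of the single libraries was not analysed here. Absence from the P28 list therefore means that no TSS with that symbol fell in the enriched cluster at P28. It is not a measured loss or gain of ARID2, and no test of a difference between the ages was made from these lists.

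PBAF is a SWI/SNF complex that uses the ATPase BRG1 to slide and eject nucleosomes, and ARID2 and PBRM1 are among the subunits that set it apart from the related BAF complex. SWI/SNF complexes are commonly found at promoters. In the male germline, spermatocytes pass through a long prophase of recombination before they build a spindle and divide.

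The genes listed at P28.5 only were mostly protein-coding. Of the 736 names, 719 matched a RefSeq symbol of GRCm38.p6 as written, 16 matched through a synonym, and Ccl21c matched none. Protein-coding genes numbered 681 (92.5%), beside 38 long noncoding RNAs and 10 miRNAs. The others were 3 transcribed pseudogenes, 1 unclassified RNA, the small nucleolar RNA Snora26 and Terc, the RNA template of telomerase. Over all 49595 annotated genes 1.48% were listed at P28.5 only, and among 21774 protein-coding genes 3.13% were listed at P28.5 only, 8.48% at both ages and 8.33% at P28 only.

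To show what these promoters look like, 150 bases upstream of the listed 5′ end are printed for 6 members, chosen after their values were seen: a PBAF subunit, a meiotic chromosome protein, a phosphatase, a passenger complex subunit, a kinesin and a condensin subunit. The sequences are RefSeq promoter sequences of build GRCm38.p6 on the plus strand, the strand of all 6 genes. The last base printed lies just before the 5′ end, and capitals mark the motif matches described later. The windows are chr14:31018988-31019137 for Pbrm1, chr3:95559527-95559676 for Hormad1 and chr11:52098674-52098823 for Ppp2ca. Those of the others are chr11:117849087-117849236 for Birc5, chr2:109280588-109280737 for Kif18a and chr15:89355569-89355718 for Ncaph2.
Pbrm1: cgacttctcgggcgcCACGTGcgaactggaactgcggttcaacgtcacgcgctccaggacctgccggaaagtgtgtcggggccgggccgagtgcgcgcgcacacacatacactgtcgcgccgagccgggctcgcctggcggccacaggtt
Hormad1: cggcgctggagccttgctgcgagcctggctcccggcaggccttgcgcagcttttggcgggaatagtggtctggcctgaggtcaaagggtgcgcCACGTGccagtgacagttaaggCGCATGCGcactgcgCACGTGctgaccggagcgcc
Ppp2ca: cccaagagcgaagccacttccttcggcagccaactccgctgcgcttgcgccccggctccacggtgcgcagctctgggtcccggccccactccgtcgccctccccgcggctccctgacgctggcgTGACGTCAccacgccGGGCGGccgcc
Birc5: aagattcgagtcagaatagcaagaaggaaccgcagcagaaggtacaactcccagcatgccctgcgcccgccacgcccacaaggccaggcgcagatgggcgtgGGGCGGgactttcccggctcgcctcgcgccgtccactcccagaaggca
Kif18a: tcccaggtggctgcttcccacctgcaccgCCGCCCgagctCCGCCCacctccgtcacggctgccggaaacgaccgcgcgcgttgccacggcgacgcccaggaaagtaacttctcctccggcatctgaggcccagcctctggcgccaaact
Ncaph2: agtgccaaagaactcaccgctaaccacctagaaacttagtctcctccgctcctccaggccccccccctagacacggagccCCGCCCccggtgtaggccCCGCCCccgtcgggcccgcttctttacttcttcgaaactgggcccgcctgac

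Few positions of the members were in the P28 list under another name. The 736 genes had 2043 rows at 1257 distinct positions, and 1249 of these positions (all but 0.636%) were absent from the P28 list. They supplied 82.1% of the 1522 positions found at P28.5 and not at P28. For the genes listed at both ages, 3663 of 3936 P28.5 positions (93.1%) were in the P28 list as well. The nearest P28 position, of any name, lay a median of 91572 bp from a member (quartiles 36341 to 222227 bp). For 710 of the 736 (96.5%) no P28 position lay within 2000 bp. The median of 91572 bp places the usual member well outside the promoter of the nearest gene listed at P28. The rule left out every name of the P28 list, so these distances run to rows of other names. In the reverse direction, 2099 of the 2124 P28-only names (98.8%) had no P28.5 position within 2000 bp, and the median was 189460 bp. A long distance was thus not particular to the members.

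**Figure D1:**
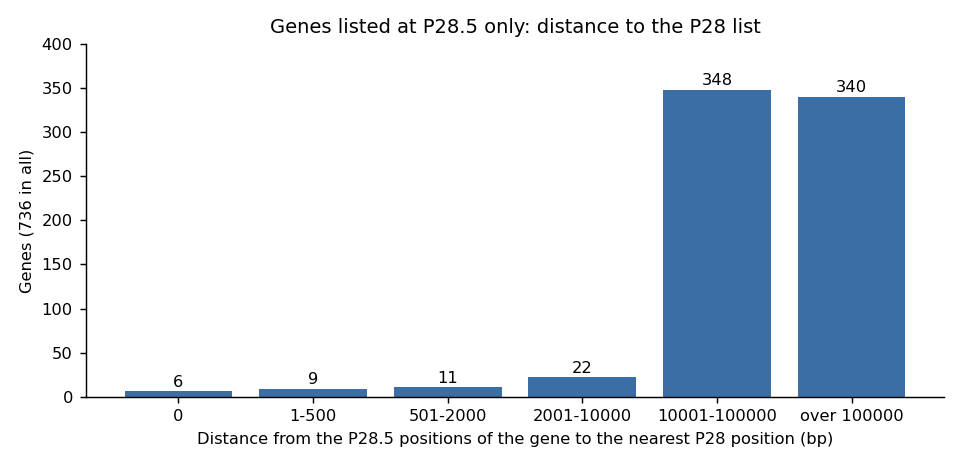
Number of genes listed at P28.5 only, by the distance in bp from their P28.5 positions to the nearest position in the P28 list. Bars are gene counts out of 736, and 688 genes had no P28 position within 10000 bp.

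The remaining 26 genes were the ones for which the name and the position disagreed. For 6 of them a listed position was in the P28 list under another name: Gm21586, Ccl21c, Gm13290, Gm13285, Gm45929 and Gm21708, the last of which was named after its values were seen. Gm13285 had 3 such positions on chromosome 4, which carried the names Gm13272 and Gm13287 at P28. Gm45929 had 6 rows at 1 position, which was listed as Borcs8 at P28. These were changes of label at an unchanged position. Whether reads from similar gene copies were separated at these loci was not tested.

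Another 20 genes had a P28 position 1 to 2000 bp away, and at 14 of them that position was also in the P28.5 list. Cenpk, which encodes a subunit of the constitutive centromere network, had its 1 position 337 bp from Ppwd1, and Ppwd1 was listed at both ages. For such genes the neighbourhood was listed at P28 although the gene's own TSS was not. The next examples were picked after their values were seen. Cdca3, a regulator of entry into mitosis, had 1 position 670 bp from Usp5, a gene listed at both ages. Exoc8, an exocyst subunit, lay 157 bp from Sprtn in the same way. Mdh1, the cytosolic malate dehydrogenase, had 10 rows at 1 position 412 bp from Wdpcp, whose name and position were in the P28 list only. The region between Mdh1 and Wdpcp was thus represented at each age by a different name.

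Most members had few rows. Rows stand for transcripts, so several rows can share a position. The median was 2 rows (quartiles 1 to 3) at 1 position (quartiles 1 to 2), and 337 genes (45.8%) had a single row. Genes listed at both ages also had a median of 2 rows at P28.5 (quartiles 1 to 4), with 39.8% at a single row. Only 27 members (3.67%) reached 10 rows, against 106 of the genes listed at both ages (5.38%). The spread over genes describes the lists and is not the error of a measurement, because a gene is no replicate.

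The member with the most rows was Pbrm1, the bromodomain subunit that defines PBAF together with ARID2. It had 38 rows at 7 positions within chr14:31019138-31019170. Its first position equalled the annotated 5′ end of the gene, and 15 of the rows fell at position 31019141. The nearest P28 position belonged to Spcs1, 17479 bp away. Of the 29 SWI/SNF subunit genes, Pbrm1 was the only one listed at P28.5 only (3.45%, 95% Wilson interval 0.611% to 17.2%), while 4 were listed at both ages and 4 at P28 only. Wilson intervals here and later cover counting error only. Parp6, a mono-ADP-ribosyltransferase, followed with 27 rows at 5 positions, and Rexo5, an RNA exonuclease, with 23 rows at 3 positions. Supt20, a subunit of the SAGA coactivator, had 22 rows at 7 positions that spanned 54692760 to 54693105 on chromosome 3. Morn1, a MORN-repeat protein, had 21 rows and the most distinct positions of any member, 10, which all lay between 155086509 and 155086613 on chromosome 4. Papola, the nuclear poly(A) polymerase, and Wdr25, a WD-repeat protein, each had 7 positions. In each of these genes the positions crowded into less than 500 bp, so a high row count went with many rows at 1 promoter rather than with several promoters.

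Listed positions were annotated TSSs before the clustering, so closeness to an annotated start was set in advance and does not locate ARID2. Of the 1253 member positions that could be matched to a gene, 666 (53.2%) equalled one of that gene's annotated 5′ ends, 453 (36.2%) lay within 100 bp of one, and 30 (2.39%) lay over 2000 bp away. The share within 2000 bp was 97.6% for the genes listed at P28.5 only, 98.5% for the P28.5 positions of genes listed at both ages, and 67.5% for the genes listed at P28 only. By this measure the members resembled the genes listed at both ages. Of the P28-only positions, 32.5% were far from a start of the named gene. The plus strand held 67.1% of the protein-coding P28-only genes, against 88.4% of protein-coding members. Listing differed by strand, as described next, and the part of strand in these shares was not tested.

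Members were mostly plus-strand genes, and the way the positions were listed differed by strand. Of the 680 member positions that equalled an end of a transcript of the named gene, 679 were at its lower coordinate, which is where plus-strand transcripts begin and minus-strand transcripts stop. They comprised 665 positions of plus-strand and 14 of minus-strand genes, and the remaining 1 equalled a minus-strand 5′ end. Exact minus-strand starts were thus nearly missing from the member positions, and this bears on every share given here over genes of both strands. Of the 681 protein-coding members, 602 were on the plus strand (88.4%), as were 87.4% of those listed at both ages, 67.1% of those at P28 only and 49.9% of all protein-coding genes. Among all protein-coding genes, 5.54% of plus-strand but 0.725% of minus-strand genes were listed at P28.5 only. Among all members with a known strand, 525 of 641 plus-strand genes (81.9%) had a position equal to one of their 5′ ends. Among the 94 minus-strand members, 80 (85.1%) had a row no more than 2000 bp from a 5′ end of their own, 13 had a position equal to their own 3′ end and 16 had one that equalled the start of a plus-strand gene. These 16 included Hscb at the start of Chek2 and Tubgcp2 at the start of Zfp511. For Cdk5, a neuronal kinase, the position was the start of Slc4a2, whose own name was in neither list. A minus-strand name in the lists may thus refer to the promoter of its plus-strand neighbour. Other than Tubgcp2, the minus-strand genes in this paragraph were picked after their values were seen.

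**Figure D2:**
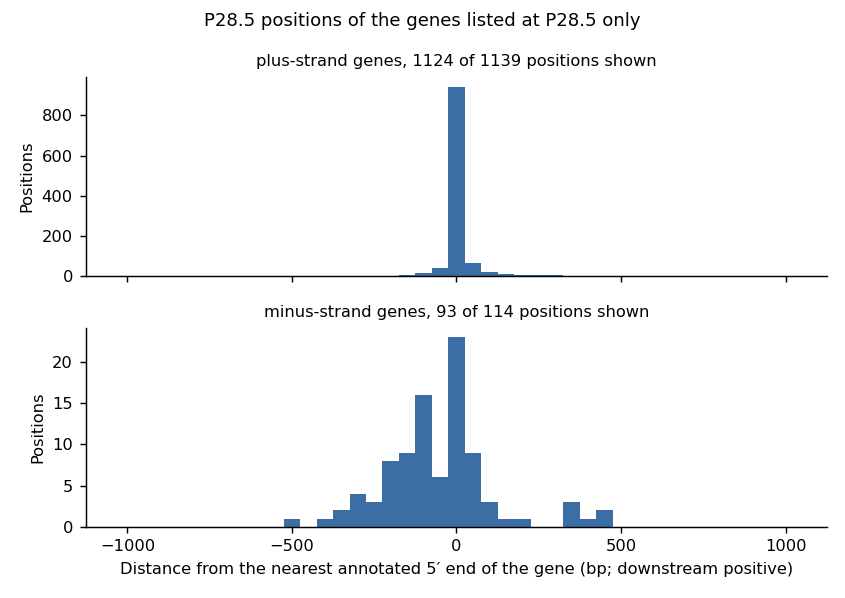
Distance in bp from each P28.5 position of a gene listed at P28.5 only to the nearest annotated 5′ end of that gene, in bins of 50 bp, for plus-strand genes (top, 1124 of 1139 positions in range) and minus-strand genes (bottom, 93 of 114). The plus-strand positions pile up at 0, and the minus-strand positions are spread more widely.

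Where a gene had several promoters, 1 was listed. Annotated 5′ ends more than 2000 bp apart were counted as separate promoters, and 160 of 735 members had more than 1. Exactly 1 was listed in 157 of them (98.1%), none in 3, and all of them in no gene. Among genes listed at both ages the P28.5 list likewise held exactly 1 for 453 of 470 (96.4%). In the members it was the most upstream promoter for 117 of 157 (74.5%). Spdya, an activator of CDK2 in spermatocytes, was an example of a downstream promoter, with 5 rows at 4 positions that began 24724 bp from the outermost 5′ end. Otub2, a deubiquitinase, was listed 11787 bp inside its annotated start, and Zfp821, a zinc finger protein, 10242 bp inside it.

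Promoters of the members were rich in CpG. The CpG ratio, which is the observed over the expected number of CG dinucleotides within 500 bp on either side of the outermost 5′ end, had a median of 0.773 (quartiles 0.648 to 0.869). It was 0.782 in genes listed at both ages, 0.610 at P28 only, 0.423 in genes of neither list and 0.516 over all protein-coding genes. A ratio of at least 0.6 was found in 80.9% of members, 83.8% of the genes of both ages and 51.1% of those at P28 only. Across quintiles of this ratio over all protein-coding genes, the share listed at P28.5 only was 0.620%, 0.758%, 2.23%, 4.96% and 7.07%, from the lowest to the highest. The P28-only share had another shape, with 5.14% in the lowest and 8.86% in the highest quintile.

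**Figure D3:**
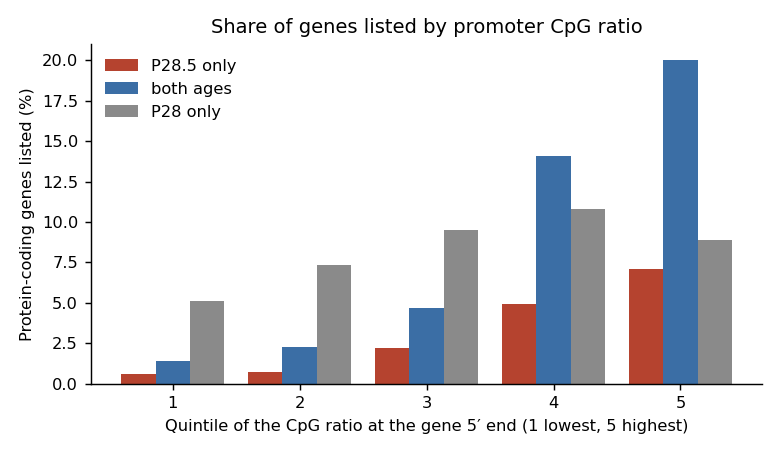
Share of protein-coding genes (%) that were listed at P28.5 only, at both ages or at P28 only, in each quintile of the CpG ratio at the 5′ end. The P28.5-only share went from 0.620% in the lowest to 7.07% in the highest quintile, and the P28-only share from 5.14% to 8.86%.

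Measured around the first listed position instead, the median was 0.790 for the members, 0.804 for genes of both ages and 0.393 for genes at P28 only. Of the P28-only positions, 32.5% lay over 2000 bp from a start of the named gene, and more P28-only genes were on the minus strand. The value of 0.393 is thus not one of promoters alone, and the part of strand in it was not tested. Of the 130 members under 0.6 at the outermost 5′ end, 63 (48.5%) reached 0.6 at the listed position. Wapl, which releases cohesin from chromosomes, had a ratio of 0.0267 at its outermost 5′ end and 0.896 at the listed one, 1414 bp downstream. Spo11, the enzyme that makes meiotic double-strand breaks, went from 0.255 to 0.623 at a position 2386 bp downstream. Orc1, the largest subunit of the origin recognition complex, went from 0.375 to 0.891 over 3749 bp. In these 3 genes the listed start was the CpG-rich one.

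In gene length the members stood near the other listed genes. Members had a median length of 23.7 kb and 3 annotated transcripts, beside 23.3 kb and 4 transcripts for the genes of both ages. Genes at P28 only had 21.7 kb and 3 transcripts. The medians were 15.9 kb and 2 for genes in neither list and 17.2 kb and 2 for all protein-coding genes. A minus-strand start within 1000 bp upstream was annotated for 18.8% of plus-strand members, 26.8% of plus-strand genes of both ages and 9.47% of all plus-strand genes.

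A small share of members had a listed neighbour. For 52 members (7.07%) another P28.5 name had a position within 1000 bp, against 10.3% of genes listed at both ages, and for 36 of the 52 that neighbour was a member too. They formed 18 pairs, 15 of them on opposite strands. Chek2, the checkpoint kinase of the DNA damage response, and Hscb, an iron-sulfur cochaperone, had positions 143 bp apart. Rev3l, the catalytic subunit of translesion polymerase zeta, lay 85 bp from the noncoding RNA E130307A14Rik. Cep83, a protein of the centriole's distal appendages, lay 292 bp from Cep83os, and Tubgcp2, a component of the gamma-tubulin ring, 306 bp from Zfp511. Such a pair counts as separate genes in the lists although it may stand for 1 enriched region.

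Motif letters were then searched on both strands in the 300-base RefSeq promoters, from 250 bases before to 50 after each start. A promoter was found for 578 of the 681 protein-coding members and for 17492 protein-coding genes in all. The GC box (GGGCGG), the target of SP and KLF factors, was in 68.0% of member promoters, 72.9% of those of both ages, 54.3% at P28 only and 46.3% of all. The ETS core (CCGGAAG) was in 24.2% of members and 11.9% of all promoters, with 23.0% at both ages. The CCAAT box (CCAAT), bound by NF-Y, was in 38.6% of members, 48.5% of genes of both ages and 39.2% of all. Member promoters thus stood near the genes of both ages for GC boxes and ETS cores, and near all promoters for the CCAAT box.

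The rarer motifs had low shares throughout. The full CRE (TGACGTCA), bound by CREB and the germ cell factor CREM, was in 5.88% of member promoters, 4.33% at both ages and 2.33% of all. The NRF1 core (CGCATGCG) was in 6.40% of members, 7.14% at both ages and 2.55% of all. This core was substituted for a site longer by 1 base at each end after the values of the longer site had been seen. The longer site was in 4.15% of members, 3.31% at both ages and 1.33% of all, so the order of members and genes of both ages turned with the length of the motif. The E-box (CACGTG) was in 12.6% of members, 12.0% at both ages and 7.91% of all. The YY1 core (AAGATGGC) was in 5.54%, 5.74% and 3.21%. Conversely the TATA box (TATAAA) was in 5.54% of members, 5.54% at both ages and 13.3% of all promoters. Several of these motifs contain CG, whose frequency also differed between the groups, and its part in these shares was not tested. In the sequences printed above, with positions counted back from the 5′ end to the first letter of the match, Hormad1 held an E-box at -57 and at -20 and an NRF1 core at -35. Ppp2ca held a CRE at -26 and a GC box at -11, Pbrm1 an E-box at -135 and Birc5 a GC box at -48. Kif18a had GC boxes at -121 and -110, and Ncaph2 at -70 and -52. A match is a description of the letters and not evidence of a bound factor.

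Gene lists were next read against the background of 3.13%. Of 39 lists, 27 had a higher share of genes listed at P28.5 only, and for 13 the whole 95% Wilson interval lay above the background. The intervals were not adjusted for the number of lists, and none was set against the background by promoter type given next. The background depends on promoter type. It was 10.4% among the 4727 plus-strand genes with a CpG ratio of at least 0.6, and 22 of 38 lists exceeded that value when cut in the same way. Among genes listed at P28.5, 26.9% of protein-coding genes were absent at P28, which is the share to compare with when asking how a list divided between the ages. For 33 of the 37 lists with any gene at P28.5, the 95% interval of this share included 26.9%. It was 29.6% for spindle assembly (interval 15.9% to 48.5%), 30.8% for kinetochore genes, and 28.6% for both the passenger complex with PP1 and PP2A and meiotic prophase. Most lists therefore could not be told apart from the genes listed at P28.5 as a whole in how they divided.

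**Figure D4:**
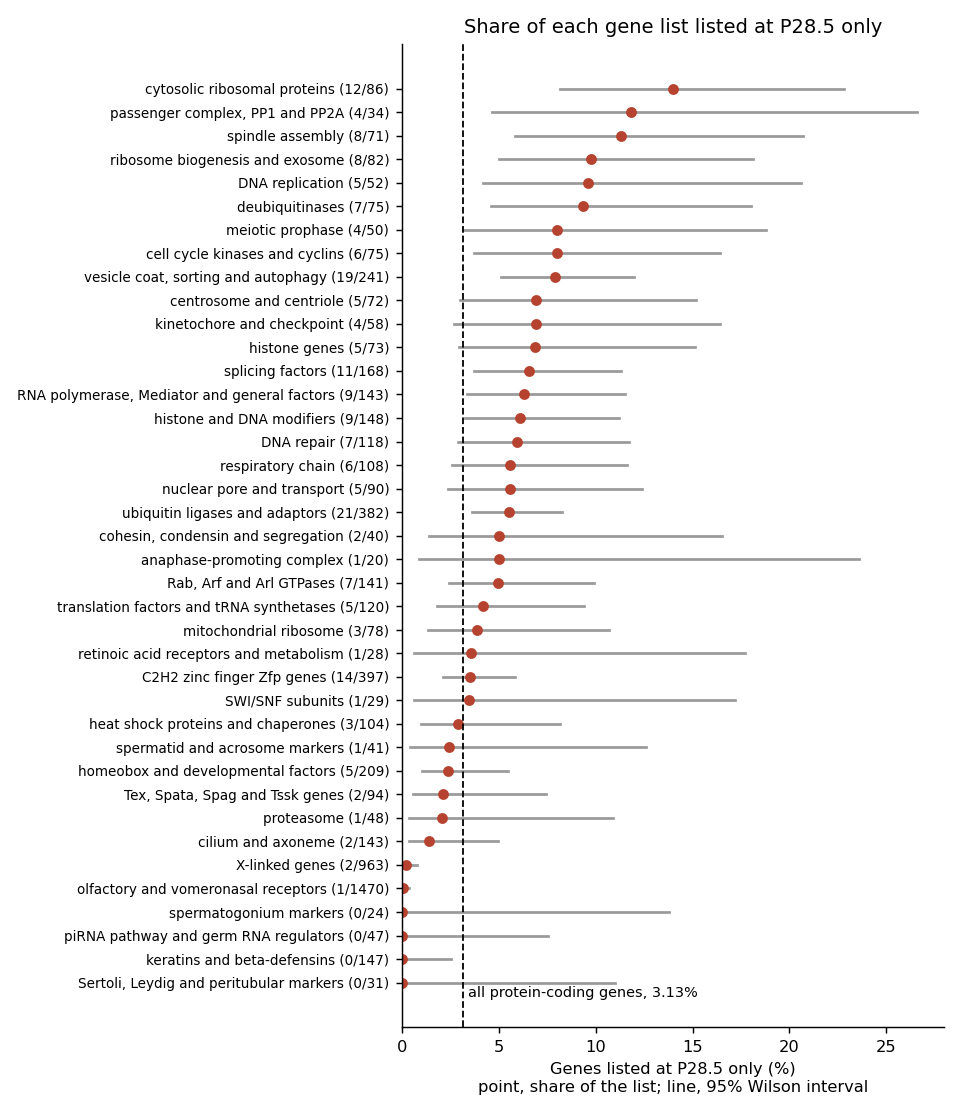
Share of each gene list (%) listed at P28.5 only, with its 95% Wilson interval (line) and the number of genes in parentheses. The dashed line marks the 3.13% of all protein-coding genes, and cytosolic ribosomal proteins (14.0%), the passenger complex with PP1 and PP2A (11.8%) and spindle assembly (11.3%) had the highest shares.

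Spindle assembly genes build the microtubule apparatus that segregates chromosomes. Of 71 such genes, 8 were listed at P28.5 only (11.3%, interval 5.82% to 20.7%), and 19 at both ages. All 8 were on the plus strand with a CpG-rich promoter. They were 26.7% of the 30 genes of that kind in the list, against a background of 10.4% that was added after the data were seen. Of the 27 spindle genes listed at P28.5, 29.6% were absent at P28, and the interval of this share included the 26.9% of all protein-coding genes listed at P28.5. Tpx2, which activates Aurora A kinase and nucleates spindle microtubules, had 8 rows at 2 positions, 152847964 and 152847979 on chromosome 2. Its first position was the gene's 5′ end, and the nearest P28 position, of Foxs1, was 93016 bp away. The paper reports Tpx2 as a CUT&RUN target of ARID2 and names no age for it in its text. Absence from the P28 list does not show that ARID2 was missing there. Spag5, the spindle and kinetochore protein astrin, had 6 rows at 2 positions and a P28 neighbour at 39636 bp. The other 6 had 1 or 2 rows each. They were Kif18a, a kinesin that dampens chromosome movement, Nusap1, a microtubule bundler, and Ran, the GTPase that directs assembly around chromosomes. Dync1h1, the dynein heavy chain, Mapre1, a plus-end tracking protein, and Stmn1, a microtubule destabilizer, completed the list. For all 8 the nearest P28 position was at least 24002 bp away, the value for Nusap1.

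At kinetochores and centrosomes the shares were 6.90% and 6.94%, and both intervals included the background. Among 58 kinetochore genes the members were Cenpu, Zwint, Cenpk and Sgo1. Cenpu, a further subunit of the centromere network, had 4 rows at 2 positions. Zwint, which recruits the checkpoint complex with ZW10, had 3 rows at 1 position, 1324352 bp from the nearest P28 position. Sgo1, the protector of centromeric cohesin, was a minus-strand gene with its 1 position 300 bp from an annotated 5′ end. Of 72 centrosome genes, 5 were listed at P28.5 only. Alms1, a centriolar protein, had 9 rows at 5 positions, more than the centriole proteins Ccdc14 and Spice1 with 4 and 3 rows.

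Genes of mitotic phosphatases and the passenger complex gave 4 of 34 (11.8%, interval 4.67% to 26.6%), and another 10 of the 34 were listed at both ages. Birc5 encodes survivin, the subunit that targets the passenger complex to centromeres, and had 2 rows at chr11:117849237, with the nearest P28 position 32131 bp away. Ppp2ca, the catalytic subunit of PP2A, had 1 row at chr11:52098824, which equalled its 5′ end, and a P28 neighbour 94603 bp away. The paper reports ARID2 at the Ppp2ca promoter, again with no age named in its text. Ptpa, an activator of PP2A, had 2 rows, and the regulatory subunit gene Ppp2r5c had 1. Besides Birc5, the members of this list thus stood for a catalytic, a regulatory and an activating component of PP2A, and no PP1 gene was among them. Cdc16 was the only one of 20 genes of the anaphase-promoting complex listed at P28.5 only, with 4 rows at 3 positions, while 7 of the 20 were listed at both ages.

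Cohesin and condensin genes gave 2 of 40 (5.00%). Ncaph2, a subunit of condensin II, had 8 rows at 4 positions within chr15:89355719-89355741, 211426 bp from the nearest P28 position. Wapl had 3 rows at 2 positions, 657508 bp from it. Cell cycle kinases, cyclins and their regulators gave 6 of 75 (8.00%, interval 3.72% to 16.4%). Chek2 had 7 rows at 4 positions. The E2F family was represented by E2f5 and E2f6, both transcriptional repressors, and by the atypical member E2f8, with 2, 5 and 1 rows. Ccng2, a cyclin linked to cell cycle exit, and Cdk8, the kinase of Mediator, had 1 row each.

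**Figure D5:**
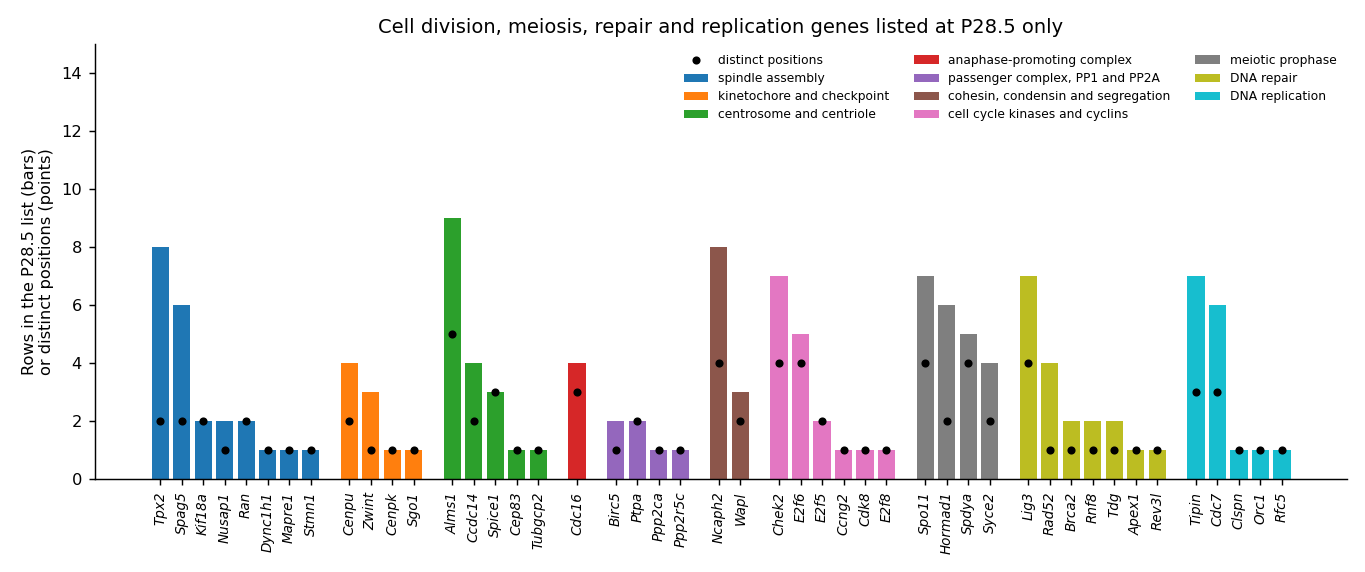
Rows in the P28.5 list (bars) and distinct positions (points) for each member of the cell division, meiosis, repair and replication lists that was listed at P28.5 only. Alms1 had the most rows, 9, and many genes had a single row at a single position.

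Meiotic prophase genes act in recombination and synapsis, and 4 of 50 were listed at P28.5 only (8.00%, interval 3.15% to 18.8%), beside 10 at both ages. Spo11 had 7 rows at 4 positions from 172979765 to 172979842 on chromosome 2, with Rae1 as the nearest P28 name at 20270 bp. Hormad1, which marks unsynapsed chromosome axes, had 6 rows at 2 positions: 4 rows at the 5′ end at 95559677 on chromosome 3 and 2 rows 37 bp upstream. Syce2, a protein of the central element of the synaptonemal complex, had 4 rows at 2 positions. Spdya is described above. These genes are known for roles at different points of prophase, from break formation to synapsis.

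DNA repair genes gave 7 of 118 (5.93%, interval 2.90% to 11.7%). Lig3, a DNA ligase, had 7 rows at 4 positions, and Rad52, a recombination mediator, 4 rows at 1 position. Brca2, which acts in recombination repair, Rnf8, a ubiquitin ligase at breaks, and Tdg, a DNA glycosylase, had 2 rows each at 1 position. Apex1, the main apurinic endonuclease, and Rev3l had 1 row each. Replication genes gave 5 of 52 (9.62%, interval 4.18% to 20.6%). Tipin, of the fork protection complex, had 7 rows, and Cdc7, the kinase that fires origins, had 6. Clspn, which encodes the checkpoint adaptor claspin, Orc1 and Rfc5 had 1 row each, and Rfc5 was named after its value was seen.

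Chromatin genes outside SWI/SNF gave 9 of 148 histone and DNA modifiers (6.08%, interval 3.23% to 11.2%). Chd4, the remodeler of the NuRD complex, had 13 rows at 2 positions, 12 of them at 125095986 on chromosome 6. Dot1l, the H3K79 methyltransferase, had 6 rows at 4 positions, and the acetyltransferase Kat6a had 3 at 3 positions. Kmt5a, which places the first methyl group on H4K20, had 2 rows at 1 position. Histone genes gave 5 of 73 (6.85%), and of these Hist1h2ba, a testis-expressed H2B, and H1fx were minus-strand genes whose position equalled the far end of the gene, 431 bp and 1061 bp from their starts. The position of Hist1h2af lay 1507 bp from that of Hist1h3g, which was listed at P28. Histone genes lie close together, so a name there may stand for a neighbour.

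The highest share fell to a housekeeping group. Cytosolic ribosomal protein genes gave 12 of 86 (14.0%, interval 8.17% to 22.8%), and among the 34 of them that were listed at P28.5, 35.3% were absent at P28 (interval 21.5% to 52.1%). Rpl38, Rpl29 and Rpl35a had 4, 3 and 3 rows, and Rpl7a had 2. The mitochondrial ribosome gave 3 of 78 (3.85%), and ribosome biogenesis and the exosome 8 of 82 (9.76%, interval 5.03% to 18.1%), with Exosc10, the nuclear exosome's nuclease, at 7 rows and Rrp1b at 4. Translation factors gave 5 of 120 (4.17%), among them Eif4g1, the scaffold of the cap-binding complex, with 15 rows at 4 positions. Splicing factors gave 11 of 168 (6.55%, interval 3.70% to 11.3%), with 1 or 2 rows for each gene named by the rule, such as Prpf6 and Ddx39b. RNA polymerase, Mediator and general factors gave 9 of 143 (6.29%), led by Supt20, with Gtf2a2 at 5 rows and the TFIID subunit genes Taf9 and Taf12 at 3 each.

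Protein and membrane turnover followed. Ubiquitin ligases and adaptors gave 21 of 382 (5.50%, interval 3.62% to 8.26%), including Trim32 with 6 rows and the conjugating enzyme gene Ube2j2 with 5. Deubiquitinases gave 7 of 75 (9.33%, interval 4.59% to 18.0%), and 38.9% of the 18 listed at P28.5 were absent at P28 (interval 20.3% to 61.4%). Uchl3 and Zranb1 had 4 rows each, and Otub2 and Usp8 had 3. Vesicle coat, sorting and autophagy genes gave 19 of 241 (7.88%, interval 5.11% to 12.0%). The autophagy genes Atg5 and Atg16l1, which act together in lipid conjugation to LC3, had 5 rows each at 3 positions. Ap4b1, a subunit of the adaptor complex AP-4, and Vps8, a tethering factor, had 6 rows each at 4 positions. The proteasome gave 1 of 48 (2.08%, interval 0.369% to 10.9%), Psmd11, and 12 of the 48 were listed at both ages.

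In 3 lists the whole interval lay below the background of 3.13%: chemosensory receptors, keratins with beta-defensins, and the X-linked genes described later. For chemosensory receptors the share was 1 of 1470 (0.0680%, interval 0.0120% to 0.384%), and the single gene, Vmn2r44, was on the minus strand with its position at the 3′ end, 15778 bp from its start. Keratins and beta-defensins gave 0 of 147, which allows a share of up to 2.04%. Few genes of these lists were plus-strand genes with a CpG ratio of at least 0.6, for which the background was 10.4%. They numbered 1 of 1470 chemosensory receptors, 0 of 147 keratins and beta-defensins, and 126 of 963 X-linked genes. The part of strand and promoter type in these shares was not tested. For the next 3 lists the interval included the background. None of 47 piRNA pathway and germ RNA genes was listed at P28.5 only, which allows up to 6.38%, and 11 of them were listed at both ages. Cilium and axoneme genes gave 2 of 143 (1.40%, interval 0.384% to 4.96%), Ift46 with 4 rows and Ttc8 with 2, beside 21 at both ages. Homeobox and other developmental factors gave 5 of 209 (2.39%, interval 1.03% to 5.48%), of which 4 were forkhead genes, with Foxk2 at 9 rows. Of the genes listed at P28.5, the share absent at P28 was 62.5% of 8 homeobox and developmental factors (interval 30.6% to 86.3%). It was 8.70% of 23 cilium genes (2.42% to 26.8%) and 0 of 11 piRNA genes (Wilson upper bound 25.9%). With the X-linked genes, 2 of 2, these were the lists whose Wilson interval did not include 26.9%. For the piRNA genes this depends on the kind of bound, because a limit of 3 counts in 11 genes would lie above 26.9%.

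Cell type marker lists were too short to be told apart from the background. None of 24 spermatogonium markers was listed at P28.5 only, which allows up to 12.5%, and none of 31 Sertoli, Leydig and peritubular markers, which allows up to 9.68%. Cabyr, a calcium-binding protein of the sperm tail, was the 1 of 41 spermatid and acrosome markers (2.44%, interval 0.432% to 12.6%), with 5 rows at 1 position. Such lists hold promoters and not transcripts, so they cannot check which cells were present. Zfp541, a zinc finger protein needed in meiotic prophase, had 5 rows at 2 positions, and Spata33 had 5 rows at 2 positions. Ncoa3, a coactivator of nuclear receptors, was the 1 member among 28 retinoic acid genes.

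By chromosome, the share of protein-coding genes listed at P28.5 only ran from 2.27% on chromosome 7 (interval 1.71% to 3.02%) to 5.31% on chromosome 12 (3.86% to 7.26%) among the autosomes. The X chromosome had 2 of 963 (0.208%, interval 0.0570% to 0.754%), and 0 of its protein-coding genes were listed at both ages and 0 at P28 only. They were Huwe1, a large ubiquitin ligase, and Yipf6, a Golgi membrane protein, each with 1 row. Both rows lay inside the annotated outermost start, by 2497 bp and 1465 bp, at CpG ratios of 1.07 and 0.814. Their nearest P28 position carried the name Astx6, which was not counted among these protein-coding genes. It was 28592862 bp away for Huwe1 and 24272639 bp away for Yipf6. With no protein-coding X-linked gene in the P28 list, such distances describe that list more than the 2 genes. The farthest autosomal members were Aga, a lysosomal enzyme, at 3039432 bp, the neurexin-family gene Cntnap5a at 2703921 bp and the noncoding RNA C130060C02Rik at 2685659 bp.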

How the data were processed

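The authors aligned reads to mm10 with Bowtie2, processed alignments with SAMtools, made coverage tracks with deepTools, took log2 ratios to the control without antibody, averaged replicates and clustered RefSeq TSSs by k-means. Per the file headers and values, the 2 deposited lists hold genomic positions and gene symbols and no other unit. Positions were read as 1-based and compared with 119251 transcripts of 49595 genes in RefSeq GRCm38.p6. Symbols were looked up directly, then by synonyms that belong to 1 gene. Python 3.11.15, scipy 1.17.1, numpy 2.4.6 and matplotlib 3.10.9 were used, and the name split and the distance search were checked on simulated lists.

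Members, gene lists and motifs were chosen with earlier results of these data known. Lists were written from gene function or symbol patterns, which can admit a misnamed gene. The text names Tpx2 and Ppp2ca, members of the division, meiosis and repair lists, up to 4 members with the most rows of other lists, and the extremes of rows, positions and distance. No test was made, since each list pools its replicates and single-library coverage was not analysed here. Shares carry 95% Wilson intervals, and a share of 0 a limit of 3 counts. The share of piRNA genes absent at P28 carries the Wilson bound instead. Alternatives were distance limits, matching rules, CpG windows, backgrounds and the length of the NRF1 motif.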

Additional observations from a re-analysis of the deposited data

How the results depend on the processing

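The 736 names became 736 after matching by gene, 739 from rows within 2000 bp of an own 5′ end and 711 where a P28 position near an own 5′ end counted as listed. With limits of 500 and 10000 bp, 721 and 688 genes had no P28 position nearby, beside 710. The background share of 3.13% was 1.48% over all annotated genes, 3.03% without members near a P28 position, 5.54% for plus-strand genes, and 10.4% for plus-strand genes with a CpG ratio of at least 0.6. This last background was added after the data were seen. Of 39 list shares, all stayed within their Wilson interval without members near a P28 position. With plus-strand genes, 12 moved above it and 1 below, and with the CpG limit as well, 16 of 38 moved above it and 4 below. The median CpG ratio was 0.827 in a window of 250 bp, against 0.773. No paired analysis was possible because each list pools its replicates. Coverage of single libraries was not analysed here, so leaving out a library was not run. The lists hold no signal and so give no depth behind a single start, and a gene just under the cluster limit at P28 cannot be told apart from one without ARID2.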

Other observations

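Of the 54 noncoding members, 44 (81.5%) had a single row, against 43.0% of the protein-coding members. The most rows were those of the long noncoding RNAs F730043M19Rik with 7 and E130307A14Rik with 5. The 10 miRNA names had 1 row each except Mir8112, with 2 rows at 2 positions. Mir7648, Mir7071 and Mir8112 lay 49, 321 and 348 bp from positions of the protein-coding members Alg10b, Heatr3 and Krcc1 on the same strand. Snora26 had its 1 position 447 bp from Dancr, a name listed at both ages. Terc had 1 row, 143520 bp from the nearest P28 position. These genes were picked after their values were seen.

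Among small GTPase and chaperone genes the values were near the background of 3.13% over all protein-coding genes. Among plus-strand genes with a CpG ratio of at least 0.6 they were 8.89% of 45 and 2.86% of 35, against 10.4%. Rab, Arf and Arl genes and their regulators gave 7 of 141 (4.96%, interval 2.43% to 9.89%), with the Rab regulator Tbc1d13 at 5 rows. One of these, 1110008F13Rik, entered through a synonym that resembles a Rab symbol, and Arl4d was listed 7303 bp from its own 5′ end. Heat shock proteins and chaperones gave 3 of 104 (2.88%), Dnajb6 with 6 rows, Hspa4l with 2 and Ahsa1 with 1, and 24 of the 104 were listed at both ages. Nuclear pore and transport genes gave 5 of 90 (5.56%), among them the nucleoporin genes Nup205 with 4 rows and Nup214 and Nup35 with 2 each. Zfp-named zinc finger genes gave 14 of 397 (3.53%), the respiratory chain 6 of 108 (5.56%), and genes named for testis or sperm expression 2 of 94 (2.13%).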
